A study of Mus musculus with 2 samples.

Results

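The genes described here belong to enzyme families with many members that change foreign and endogenous lipophilic compounds into forms that can be excreted. These are the cytochromes P450 (Cyp), the flavin-containing monooxygenases (Fmo), the UDP-glucuronosyltransferases (Ugt), the glutathione S-transferases (Gst) and the cytosolic sulfotransferases (Sult). Other members, such as Cyp11b1 and Cyp2r1, make or activate hormones and vitamins. The genes were taken by symbol from the protein-coding genes of GENCODE M21 on GRCm38, as Cyp, Ugt, Fmo or Sult followed by a digit, or Gst followed by a letter and a digit. This gave 172 of 21755 protein-coding genes on chromosomes 1 to 19 and X: 100 Cyp, 22 Ugt, 22 Gst, 7 Fmo and 21 Sult genes. Members of one family with at most 200 kb between neighbouring gene bodies were joined into an array, which placed 135 genes in 25 arrays and left 37 genes solitary.

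Oxidation by Cyp and Fmo enzymes is the usual first step of xenobiotic metabolism, and conjugation by Ugt, Gst and Sult enzymes is the second. Many of these genes arose by tandem duplication and lie in arrays of close relatives, while the Cyp genes for sterols, steroids, bile acids, retinoids and vitamin D are mostly alone in the genome. The nasal mucosa is rich in such enzymes, which meet inhaled compounds and help to clear odorants. There they are known mainly from the supporting cells and glands rather than from neurons.

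The boundaries against which the genes were set come from in situ Hi-C, in which chromatin is fixed, cut with DpnII and ligated so that sequences close together in the nucleus are joined. The cells were immediate neuronal precursors, sorted for a Ngn1-GFP reporter from the olfactory epithelium of untreated FVB/NTac pups of mixed sex, and fixed in 1% formaldehyde. The 2 biological replicates, of 2200000 and 2100000 cells, form a single group without controls, and their identity rests on the reporter and the sort gate. Contacts of both were combined before boundaries were called, so no value below has a replicate error, no test between conditions was possible, and the depth of sequencing is unknown.

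The list holds 7841 boundaries, each a 5 kb interval at which contacts across it are depleted, with a score and a class from the authors. A higher score marks stronger insulation. The strong class begins at 0.5 and the weak class at 0.2, as read from the values. A domain is the stretch between the midpoints of neighbouring boundaries, and a gene was placed in it by its transcription start site (TSS). Intervals given with shares are Wilson 95% intervals. They cover counting error only and treat genes of one array as independent, which they are not. Expression was not analysed here, and neither were the cells' markers.

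Of the 25 arrays, 15 had every TSS in a single domain (60%, 40.7 to 76.6%) and 10 were divided among 2 or more. Placing whole gene bodies instead of starts also gave 15. With boundaries of the strong class alone, 21 arrays (84%) were undivided and 4 divided (Cyp2b23 to Cyp2t4, Cyp4f39 to Cyp4f15, Fmo, and Sult1c2 with Sult1c1), so the counts by size and length below hold for the full list of boundaries. All 5 Gst arrays were undivided, as were 6 of 12 Cyp, 2 of 3 Ugt and 2 of 4 Sult arrays, and the single Fmo array was divided. The Gst arrays were short, at 10.6 to 173 kb from first to last TSS, beside 3.06 boundaries per Mb over the chromosomes. No share over other genes stands beside these counts, so they are not read as a difference between families. By size, of 13 arrays with 5 or more members, 9 were divided and 4 were not (Ugt1a, Cyp2d, Cyp2j and Gstm), while 11 of the 12 smaller arrays were undivided. Median length was 78.3 kb for undivided and 527 kb for divided arrays. A longer stretch has more room for a boundary. No share over other stretches of like length stands beside these counts, so nothing is read from size. The shortest divided array, the pair Sult1c2 and Sult1c1, spanned 161 kb. Only 4 undivided arrays were longer than that: Ugt1a (165 kb), Gsta (173 kb), Cyp2d (424 kb) and Cyp2j (637 kb).

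**Figure D1:**
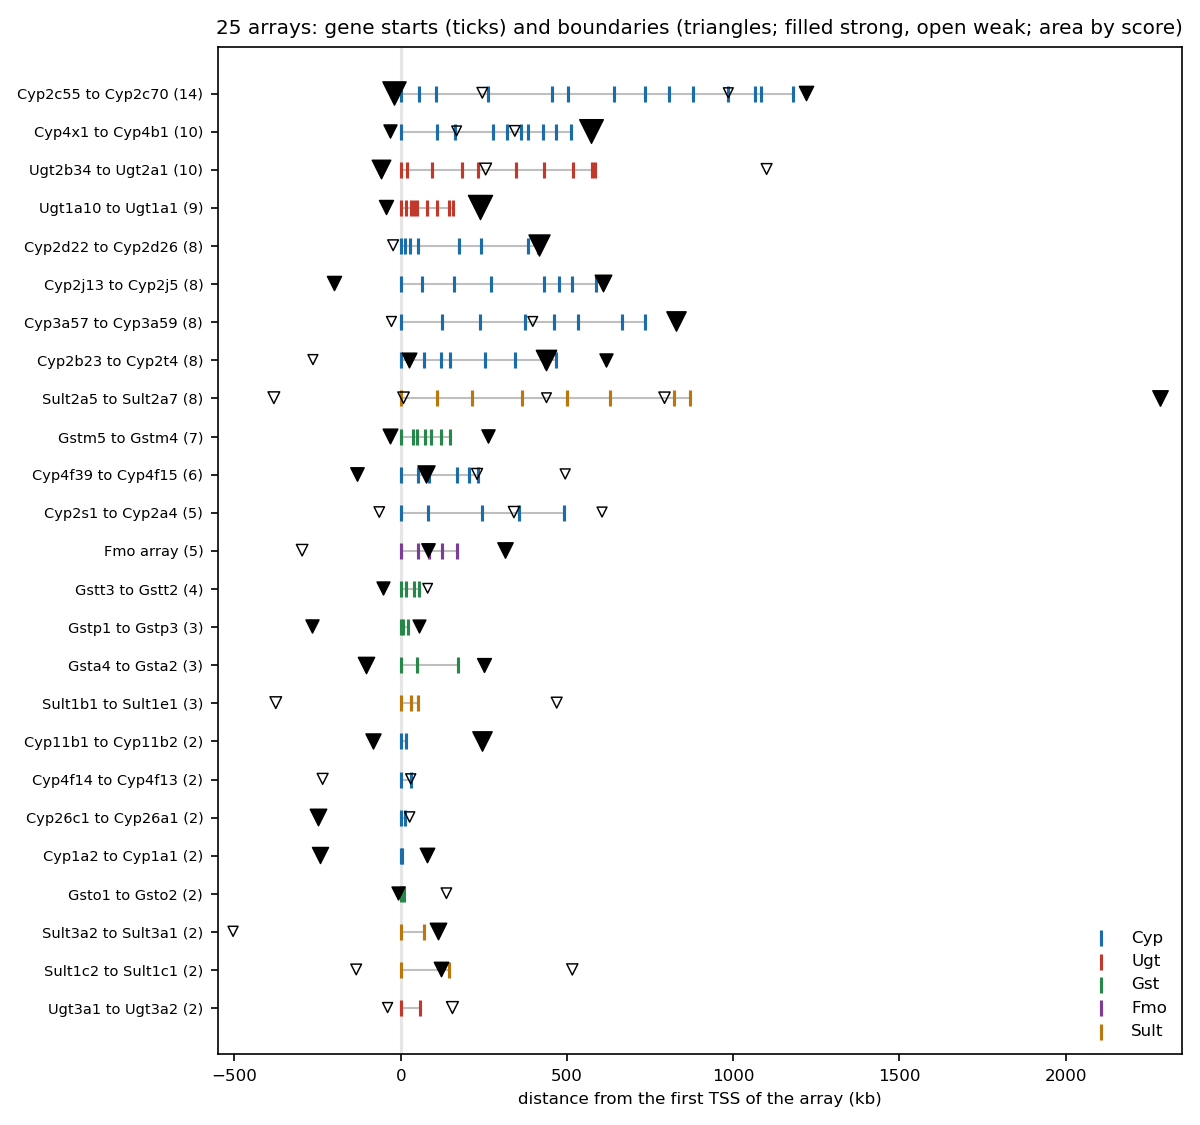
Each row is an array, with its number of members in brackets; the x axis is distance in kb from its first TSS, ticks are gene starts coloured by family, and triangles are boundaries (filled for the strong class, open for the weak class, area by score). The outermost triangles of a row are the borders of its domains, and triangles between ticks divide the 10 split arrays.

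The largest array, Cyp2c55 to Cyp2c70 (14 genes, chr19:39007019-40187333), encodes oxidases of drugs and arachidonic acid. It lay in 3 domains that held 3, 8 and 3 of its genes and no other protein-coding TSS. The boundaries inside it were both weak: 0.307 between Cyp2c66 and Cyp2c29, and 0.233 between the starts of Cyp2c37 and Cyp2c54. The boundary of 0.233 overlaps an exon of Cyp2c37. The outer borders of the array scored 2.48 on the lower-coordinate side and 0.771 on the other. Every inside boundary was thus below both borders.

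Cyp4x1 to Cyp4b1 (10 genes, chr4:115106323-115647723) holds the Cyp4a genes, which encode fatty acid omega-hydroxylases. Its 3 domains held 3, 2 and 5 members and no other gene. The inside boundaries scored 0.213, between the starts of the near-identical Cyp4a12a and Cyp4a12b, and 0.302, between Cyp4a30b and Cyp4a14. The boundary of 0.213 overlaps an exon of Cyp4a12a. The borders of the array scored 0.605 and 2.58, the latter among the higher values at any array.

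Cyp3a57 to Cyp3a59 (8 genes, chr5:145345279-146113287), which encodes broad drug oxidases, was divided 4 and 4 by a boundary of 0.216 between Cyp3a41a and Cyp3a44. The border on the Cyp3a57 side was hardly stronger, at 0.228, and the one beyond Cyp3a59 scored 1.65.

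On chromosome 7 the Cyp2a, Cyp2b, Cyp2f, Cyp2g, Cyp2s and Cyp2t genes formed a pair of neighbouring arrays. Cyp2s1 to Cyp2a4 (5 genes, chr7:25802475-26315088) was divided 3 and 2 by a weak boundary of 0.368 between Cyp2b13 and Cyp2b9, and that boundary exceeded both borders (0.293 and 0.233). Cyp2b23 to Cyp2t4 (8 genes, chr7:26665227-27158668) was divided 1, 6 and 1. Here the inside boundaries were the strong ones, 0.834 between Cyp2b23 and Cyp2b19 and 1.84 between Cyp2f2 and Cyp2t4, against borders of 0.233 and 0.605. The boundary of 1.84, at chr7:27120001-27125000, was the highest inside any array. It overlaps an exon of Cyp2f2.

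Cyp4f39 to Cyp4f15 (6 genes, chr17:32452723-32703352), whose products oxidise leukotrienes and long fatty acids, lay in 3 domains with 2, 3 and 1 members. A strong boundary of 1.24 stood between Cyp4f17 and Cyp4f16, over an exon of Cyp4f17, and a weak one of 0.339 between Cyp4f40 and Cyp4f15. The borders scored 0.654 and 0.244, so the highest inside score again exceeded both. Cyp4f15 shared its domain with the separate pair Cyp4f14 and Cyp4f13 and with 4 zinc finger genes.

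Neither of the remaining large Cyp arrays was divided. Cyp2d22 to Cyp2d26 (8 genes, chr15:82370527-82794294), the mouse relatives of the human debrisoquine hydroxylase, filled a domain of 435 kb that held no other protein-coding TSS. Its borders scored 0.320 and 1.99, and the TSS of Cyp2d26 lay 0.707 kb from the stronger. Cyp2j13 to Cyp2j5 (8 genes, chr4:96027534-96664154), arachidonic acid epoxygenases, shared a domain of 805 kb with Hook1 alone, between borders of 0.752 and 1.13. Cyp2j7, near its middle, was 357 kb from any boundary.

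The Fmo array on chromosome 1 (5 genes) was divided 2 and 3 by a boundary of 0.652 between Fmo1 and Fmo2. This interval holds the TSS of Fmo2, so the body of Fmo2 extends into the domain of Fmo1. The borders scored 0.401 and 0.939, one below and one above it.

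Among the conjugating enzymes, the Ugt1a and Ugt2 arrays differed in layout. Ugt1a10 to Ugt1a1 (9 genes, chr1:88055388-88220002) is a locus whose members have their own first exon and share the remaining exons, and Ugt1a1 glucuronidates bilirubin. All 9 starts lay in a domain of 275 kb with Dnajb3, Hjurp, Mroh2a and Trpm8. Its upper border scored 2.69, the highest at any array, and falls in an intron of Trpm8, which encodes a channel opened by cold. The lower border scored 0.739. Ugt2b34 to Ugt2a1 (10 genes, chr5:86889767-87490871) was divided 5 and 5 by a weak boundary of 0.426 between Ugt2b5 and Ugt2b37. The first 5 members had a domain of 310 kb to themselves. The other 5 shared 840 kb with Sult1b1, Sult1d1 and Sult1e1, the last an oestrogen sulfotransferase, and with 12 more genes that include the milk caseins Csn1s1, Csn2 and Csn3. That domain therefore joined arrays of 2 families.

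Sult2a5 to Sult2a7 (8 genes, chr7:13623967-14494230), hydroxysteroid sulfotransferases, was the most divided array, with 1, 3, 2 and 2 members in 4 domains. Its 3 inside boundaries were weak: 0.392, 0.208 and 0.385, with the highest between the starts of Sult2a5 and Sult2a2. The boundary of 0.392 falls in an intron of Sult2a5, most of whose body lies on the side of Sult2a2. That of 0.385 overlaps an exon of Sult2a8. The borders of the array scored 0.431 and 0.949 and lay far out, the upper one 1411 kb beyond the last TSS, past the Obox genes. In the pair Sult1c2 and Sult1c1 a strong boundary of 0.796 overlaps an exon of Sult1c1, and the borders were weak (0.311 and 0.366).

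None of the Gst arrays held a boundary. Gstm5 to Gstm4 (7 genes, chr3:107895821-108044894), the mu class, lay with 5 other genes in 290 kb between borders of 0.839 and 0.624. Gstt3 to Gstt2 (4 genes, theta class) had borders of 0.591 and 0.201. Gstp1 to Gstp3 (3 genes, pi class) shared its domain with 14 others, among them Ndufs8 and Ndufv1 of the respiratory chain, between 0.610 and 0.575. Gsta4 to Gsta2 (3 genes, alpha class) lay between 1.09 and 0.709. The undivided pairs included Cyp1a2 and Cyp1a1, targets of the aryl hydrocarbon receptor (borders 1.04 and 0.798), Cyp11b1 and Cyp11b2, which complete corticosteroid synthesis (0.896 and 1.65), and Cyp26c1 and Cyp26a1, which degrade retinoic acid (1.13 and 0.267).

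Between the first and last TSS of the arrays, 16 boundaries fell in 7.20 Mb. This is 2.22 per Mb (exact Poisson 95% interval 1.27 to 3.61, counting error only) beside 3.06 per Mb over the chromosomes, so the difference was within counting error. Of the 16 inside boundaries, 5 were strong (31.3%, 14.2 to 55.6%) and their median score was 0.377. Of the 47 distinct borders, 29 were strong (61.7%, 47.4 to 74.2%) with a median of 0.610. Over all 7841 boundaries, 52.8% were strong and the median was 0.533, and over the 6894 borders of domains with a protein-coding TSS, 57.9% were strong. Borders were also redrawn with strong boundaries alone, so a weak border gave way to the next strong one outward. The median was then 0.867 at 46 borders and 0.874 over all strong boundaries, so the order of the medians turned. The intervals of inside boundaries and borders overlap. Nor are the sets separate: the inside boundaries of 0.339 (Cyp4f40 and Cyp4f15) and 0.426 (Ugt2b5 and Ugt2b37) are also borders of a neighbouring array. Undivided arrays had 19 of 30 strong borders (63.3%) and divided arrays 10 of 19 (52.6%), where a border shared by both kinds counts in each. Both borders were strong at 9 arrays, 1 of them at 11, and neither at 5.

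Inside and border scores were not in one order. In 4 of the 10 divided arrays (Cyp2s1 to Cyp2a4, Cyp2b23 to Cyp2t4, Cyp4f39 to Cyp4f15 and Sult1c2 with Sult1c1) the highest inside score exceeded both borders. In 4 it was below both, and in the other two it lay between them.

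**Figure D2:**
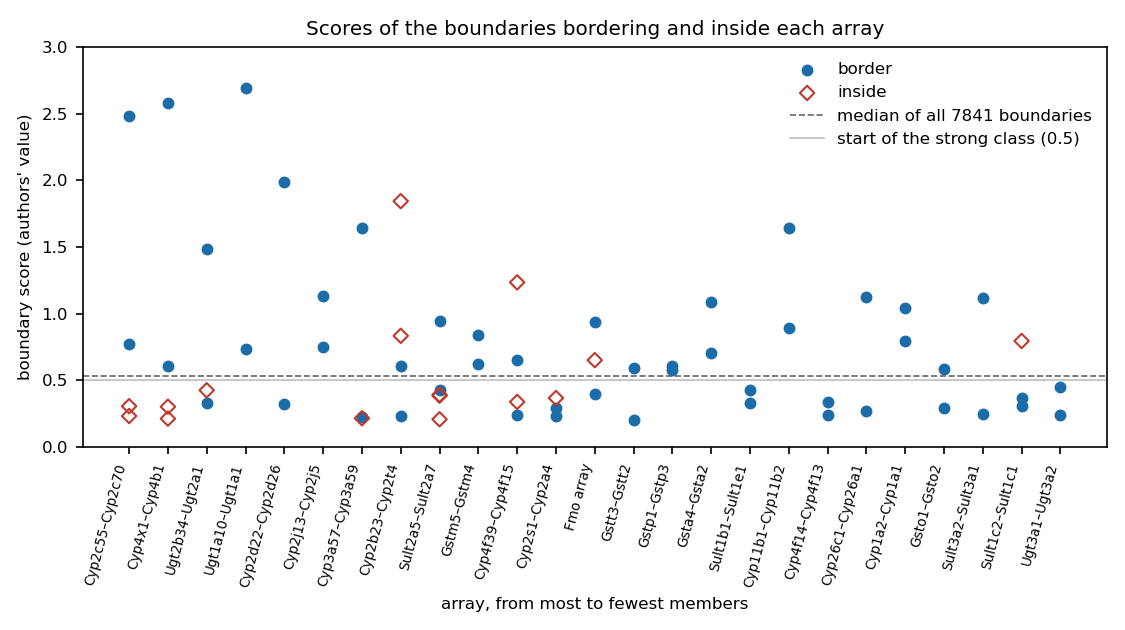
The y axis is the authors' boundary score and the x axis lists the 25 arrays from most to fewest members; filled circles are the 2 borders of the domain or domains of an array, open diamonds are boundaries inside it. Most of the 16 diamonds lie below the dashed median of all boundaries, and those of Cyp2b23 to Cyp2t4 and Cyp4f39 to Cyp4f15 reach 1.84 and 1.24.

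The sequence at these boundaries was searched for the CTCF core consensus, the middle of the motif bound by the insulator protein CTCF, on both strands. With 10 kb added on each side, 13 of the 47 borders held an exact match (27.7%, 16.9 to 41.8%), as did 26.0% of all boundaries and 11% of all 5 kb bins treated in the same way. Inside arrays the count was 2 of 16 (12.5%, 3.50 to 36.0%). Within the interval alone it was 7 of 47 borders (14.9%) against 6.90% of all boundaries. Most of the matches at arrays of 5 or more members are shown because they are the letters behind these counts. Each is given 5′ to 3′ on the strand of the match, from GRCm38.p6, with the core in capitals.
Ugt1a10 to Ugt1a1, upper border, plus strand, chr1:88285072-88285101: agtgccaggCCACTAGGGGGCtctagatct
Cyp2c55 to Cyp2c70, lower border, plus strand, chr19:38982155-38982184: cacagccatCCACTAGAGGGCgggctttga
inside Cyp2f2 and Cyp2t4, plus strand, chr7:27132747-27132776: attaaactcCCACTAGGTGGCgctgctggc
Cyp2j13 to Cyp2j5, upper border, plus strand, chr4:96687623-96687652: ctttaataaCCAGCAGATGGCttctgtctg
Sult2a5 to Sult2a7, upper border, minus strand, chr7:15912340-15912369: ctgtgaaggCCACTAGGGGGCagcagagat
Gstm5 to Gstm4, lower border, minus strand, chr3:107864110-107864139: caggagtggCCAGCAGAGGGCagctcaaac
Cyp2c55 to Cyp2c70, upper border, minus strand, chr19:40232863-40232892: ggtttgactCCACCAGGTGGCcattcaacc
Cyp2c55 to Cyp2c70, upper border, minus strand, chr19:40225608-40225637: aacccacagCCAGCAGGTGGCagtgtaggc
Gstm5 to Gstm4, upper border, minus strand, chr3:108148066-108148095: cagagactgCCAGTAGGTGGCagtgtgagc
Cyp2b23 to Cyp2t4, upper border, minus strand, chr7:27314575-27314604: ctgttagtgCCAGTAGAGGGCatcggattt
Cyp4x1 to Cyp4b1, lower border, plus strand, chr4:115101792-115101821: ctatagtggCCACTAGATGGCcacaccgtg
Cyp4x1 to Cyp4b1, lower border, minus strand, chr4:115097355-115097384: agtgtaaagCCACCAGATGGCagcagagct
inside Cyp4a30b and Cyp4a14, plus strand, chr4:115476212-115476241: actgaccagCCACCAGGGGGCactgacata
Cyp4f39 to Cyp4f15, upper border, minus strand, chr17:32951629-32951658: caccaagtaCCAGCAGGGGGCgcggtggaa
A match is a description of letters and not a bound site. The upper border of the Cyp2c array had 2 matches on the minus strand, and its lower border 1 on the plus strand. Both Gstm borders had a match on the minus strand. Of the inside boundaries, that of Cyp2f2 and Cyp2t4 had its match in an intron of Cyp2f2, 7.77 kb from the interval, and the weak one between Cyp4a30b and Cyp4a14 had it within the interval.

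Boundaries inside arrays can be compared with those between any neighbouring genes of like spacing. Of the 105 neighbouring member pairs, which have consecutive starts at most 200 kb apart, 15 were separated by a boundary (14.3%, 8.85 to 22.2%). Over all 18991 neighbouring protein-coding pairs the share was 18.9%. Array members start farther apart than other neighbours, at a median of 52.6 kb against 32.4 kb, and all pairs weighted to the spacing of the member pairs gave 25.0%, or 26.3 pairs. By spacing, 0 of 4 member pairs up to 10 kb apart were separated (all pairs 3.45%), 0 of 17 at 10 to 25 kb (9.21%) and 5 of 30 at 25 to 50 kb (15.1%). At 50 to 100 kb the count was 3 of 30 (10.0%, 3.46 to 25.6%) beside 26.9% of all pairs, and at 100 to 200 kb it was 7 of 24 (29.2%, 14.9 to 49.2%) beside 49.9%. The member share was below that of all pairs in 4 of the 5 classes and above it at 25 to 50 kb. The 2 widest classes were the ones in which the interval did not include the value over all pairs. Member pairs were more often on the same strand (76.2% against 52.7%), and among same-strand pairs the shares were 15% and 18.5%. These same-strand shares were not weighted to spacing, which had medians of 47.2 kb for member pairs and 34.8 kb for all. With strong boundaries alone, also unweighted, 5 of 105 member pairs (4.76%) and 12.1% of all pairs were separated.

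**Figure D3:**
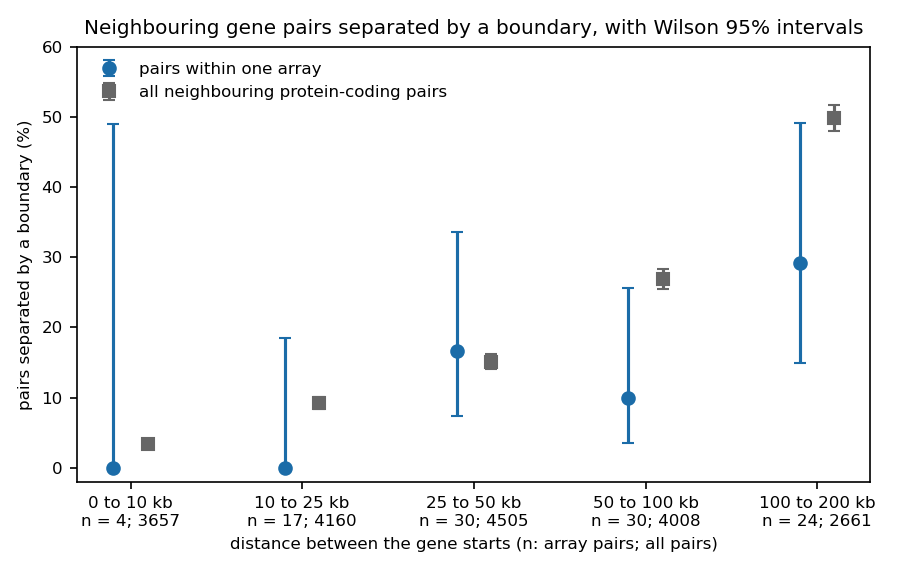
The y axis is the percentage of neighbouring gene pairs separated by a boundary and the x axis the distance between their starts in 5 classes; circles are pairs within an array, squares all protein-coding pairs, bars Wilson 95% intervals, and the 2 numbers under each class count array pairs and all pairs. Array pairs lie below all pairs in the 2 widest classes, at 10.0% against 26.9% and 29.2% against 49.9%.

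Other arrayed families were set beside their spacing-weighted values too. Of 1024 olfactory receptor pairs, 6.45% were separated (5.10 to 8.12%, weighted 11.6%). Of 82 vomeronasal type 2 receptor pairs, 12.2% were (6.76 to 21.0%, weighted 31.8%). Both intervals lie below the weighted value. For 48 keratin pairs the share was 8.33% (3.29 to 19.6%), and this interval includes the weighted 10.8%. The enzyme arrays were not tested against these families.

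Close relatives, placed by their starts, were found on both sides of boundaries. The coding sequences of neighbouring members were a median of 78.5% identical over the 105 pairs, with a range of 55.8 to 99.9%. The 90 pairs within a domain had a median of 77.8%, and the 15 separated pairs one of 84.3%. At least 90% identity was seen in 26 of the 90 and in 6 of the 15, among them Cyp4a12a with Cyp4a12b (98.5%), Cyp3a41a with Cyp3a44 (95.8%) and Cyp2c37 with Cyp2c54 (95.1%). Of these, Cyp4a12a and Cyp2c37 start at the boundary, and most of each gene body lies on the side of its partner. They are thus separated by their starts and not by whole genes. The least alike separated pair was Cyp2f2 with Cyp2t4 (59.0%), at the boundary of 1.84. Separated pairs also lay farther apart, at a median of 85.7 kb against 47.8 kb. The Ugt1a members share exons, which raises their identity.

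Reads from repeated sequence cannot be placed uniquely, and arrays of close relatives hold much of it. Over the arrays, 60.7 to 99.5% of sampled 50-mers occurred once in the reference genome, against 88.7% over the genome. Under 90% were 18 of the 25 arrays, but the genome value is under that limit too. The median was 89.5% for undivided and 74.0% for divided arrays, and the lowest value was that of the undivided Gsta array. The large Cyp3a (67.2%), Cyp2c (70.3%), Cyp2s1 to Cyp2a4 (71.3%) and Cyp4x1 to Cyp4b1 (71.4%) arrays were all divided, and Ugt1a (80.1%) and Cyp2d (77.6%) were not. Against that order, the divided Cyp4f39 to Cyp4f15 (88.6%), Fmo (87.5%) and Ugt2 (83.5%) arrays were more unique than either. The 5 kb bins of 9 of the 172 starts were mostly repeated (under 50% unique), as were those of 1050 of all 21755 genes, a like share. The part of repeated sequence in these calls was not tested.

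**Figure D4:**
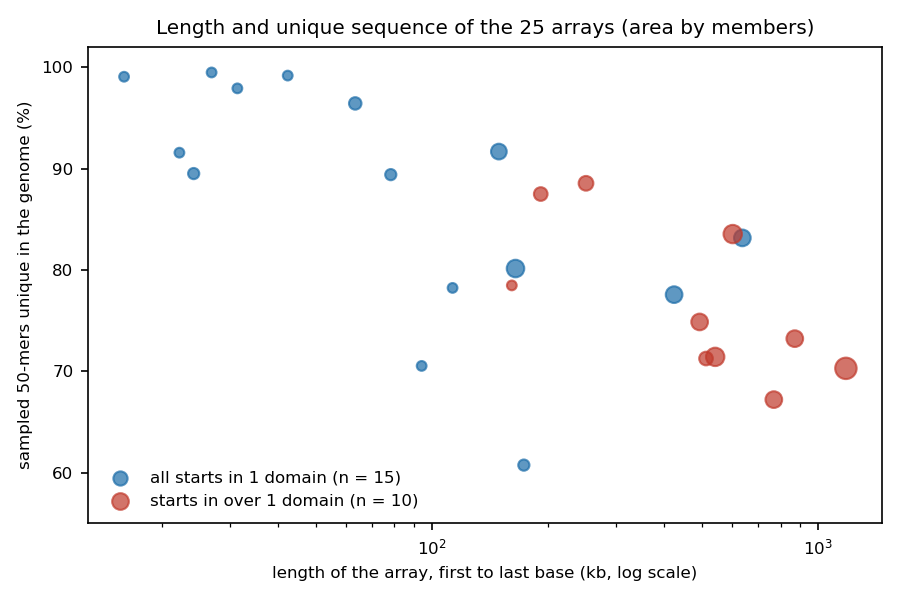
The x axis is the length of each array in kb on a log scale and the y axis the percentage of its sampled 50-mers found once in the genome; each point is an array, with area by number of members and colour by whether its starts lie in 1 domain (15) or more (10). Divided arrays are all 161 kb or longer, and the undivided Gsta array is the lowest point at 60.7%.

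Of the 172 genes, 15 started within 10 kb of a boundary interval (8.72%, 5.36 to 13.9%), beside 16.4% of all protein-coding genes. The value over all genes lies outside that interval. For boundaries of the strong class alone, the counts were 8 members (4.65%) and 10.6% of all genes. Array members contributed 10 of 135 (7.41%, 4.07 to 13.1%) and solitary members 5 of 37 (13.5%, 5.91 to 28.0%), and these intervals overlap. The median distance to the nearest boundary was 74.2 kb for array members, 65.6 kb for solitary members and 55.3 kb for all genes. Among genes in other arrays, 7.31% of 1135 olfactory receptor, 5% of 120 vomeronasal type 2 receptor and 3.77% of 53 keratin genes were as near.

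**Figure D5:**
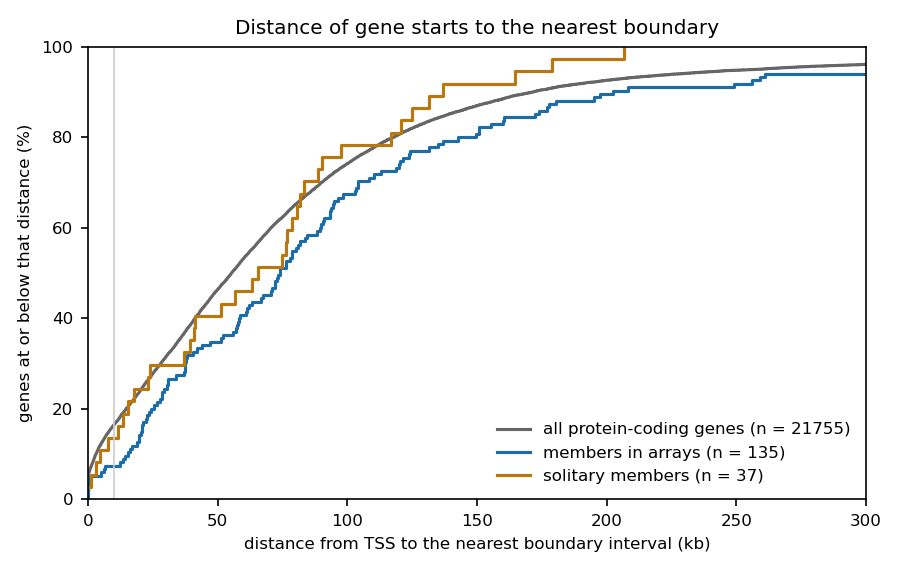
The x axis is the distance in kb from a TSS to the nearest boundary interval and the y axis the percentage of genes at or below it, for all protein-coding genes, members in arrays and solitary members; the vertical line marks 10 kb. The curve of array members lies below that of all genes over the distances shown, and the solitary curve crosses it.

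By enzyme family, 9 of 81 genes in Cyp families 1 to 4 (11.1%, 5.96 to 19.8%) and 3 of 19 in the higher-numbered Cyp families (15.8%, 5.52 to 37.6%) were near a boundary. So were 1 of 7 Fmo, 1 of 22 Gst, 1 of 21 Sult and 0 of 22 Ugt genes, where 0 allows up to 14.9% by the same interval. Most of these groups are too small for their shares to be told from that of all genes.

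The 15 near genes each had a nearest boundary of their own. Those at the strongest boundaries were Cyp2d26 (0.707 kb from a score of 1.99), Cyp2f2 (0.092 kb from 1.84), Cyp4f16 (6.56 kb from 1.24) and Cyp39a1 (7.58 kb from 1.13). Cyp2f2 oxidises naphthalene in airway epithelium, and Cyp39a1 acts on an oxysterol. The starts of 4 members lay in a boundary interval itself: Cyp46a1, the cholesterol hydroxylase of neurons (score 0.757), Fmo2 (0.652), Cyp4f13 (0.244) and Cyp2c37 (0.233). Close to boundaries of middle or low score were Cyp26b1, which degrades retinoic acid (1.09 kb from 0.747), Gsto1 (4.97 kb from 0.584), Cyp4f18 (4.63 kb from 0.439), Sult2a5 (6.03 kb from 0.392), Cyp2r1, which activates vitamin D (2.97 kb from 0.362), Cyp4f15 (0.627 kb from 0.339) and Cyp4a12a (0.955 kb from 0.213). The Cyp4f genes thus gave 4 of the 15, in or outside arrays.

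At the other end, the 5 solitary members farthest from any boundary were Cyp20a1 (207 kb), Gstk1 (179 kb), Cyp2ab1 (165 kb), Sult6b1 (137 kb) and Cyp3a13 (132 kb). The distances of several array members were larger, and those of Sult1e1 (413 kb), Sult1d1 (404 kb) and Sult1b1 (373 kb) are those of genes in the middle of the 840 kb domain.

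The sequence just upstream of 4 of the near genes is shown, 2 solitary and 2 in arrays, so that the letters behind the motif counts can be seen. Each run lies within 250 bases upstream of the RefSeq start on GRCm38.p6, stops before any annotated exon, and reads 5′ to 3′ on the gene's strand. Capitals mark exact matches on either strand to GGGCGG (the GC box), TATAAA (the TATA box), GCGTG (the core of the element bound by the aryl hydrocarbon receptor) or TGACNNNGC (the core of the antioxidant response element).
Cyp46a1, plus strand, chr12:108334066-108334315: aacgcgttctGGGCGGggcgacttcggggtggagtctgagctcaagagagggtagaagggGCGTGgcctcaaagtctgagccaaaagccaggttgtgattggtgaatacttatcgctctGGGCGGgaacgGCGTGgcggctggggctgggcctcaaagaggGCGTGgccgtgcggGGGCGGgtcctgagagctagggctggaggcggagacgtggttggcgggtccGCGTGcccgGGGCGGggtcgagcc
Cyp26b1, minus strand, chr6:84593909-84594060: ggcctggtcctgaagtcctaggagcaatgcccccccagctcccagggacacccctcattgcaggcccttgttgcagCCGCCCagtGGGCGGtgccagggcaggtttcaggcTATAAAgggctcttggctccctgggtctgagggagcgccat
Fmo2, minus strand, chr1:162898759-162899008: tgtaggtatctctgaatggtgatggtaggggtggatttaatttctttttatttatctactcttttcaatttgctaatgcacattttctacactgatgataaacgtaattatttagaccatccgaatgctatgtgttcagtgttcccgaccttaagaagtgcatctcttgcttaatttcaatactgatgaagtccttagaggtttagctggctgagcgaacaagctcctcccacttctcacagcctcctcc
Cyp2f2, plus strand, chr7:27119705-27119908: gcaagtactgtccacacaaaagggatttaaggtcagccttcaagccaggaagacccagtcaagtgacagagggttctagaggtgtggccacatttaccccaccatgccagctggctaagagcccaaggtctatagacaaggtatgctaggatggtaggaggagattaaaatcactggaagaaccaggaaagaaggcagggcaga
The solitary Cyp46a1 had 4 GC boxes and 4 GCGTG cores in 250 bases of 67.6% G and C, with 23 CpG dinucleotides. Cyp26b1 had 2 GC boxes and a TATA box in 152 bases. Fmo2 (39.6% G and C) and Cyp2f2 (50%), both in arrays, had none of the 4 motifs. Other near array members did have one: Cyp4f13 and Cyp4f15 each held 1 GC box, while Cyp2c37 (34% G and C) and Cyp2d26 held none.

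The motif counts of all matched members were as follows, without a test. Of 103 array promoters of 250 bases, 16.5% held a GC box, 28.2% a TATA box, 13.6% GCGTG and 0.971% TGACNNNGC, at a median of 45.2% G and C and 2 CpG. Of 26 solitary promoters, 46.2% held a GC box, 23.1% a TATA box, 30.8% GCGTG and 11.5% TGACNNNGC, at 54.4% and 5.5 CpG. Over all 14230 promoters these shares were 47.9%, 10.4%, 37.1% and 11.2%, at 57.2% and 12 CpG. The promoters of all genes within 10 kb of a boundary were at 59.2% and 16 CpG, so array members were on the other side of the genome median in composition and in distance alike. The part of promoter composition in their distance was not tested.

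The 39 domains with array members had a median of 5 protein-coding starts in 310 kb, and the 37 domains with solitary members only had 5 in 255 kb, beside 2 in 250 kb over all 5839 domains with a protein-coding start. Domains found through a gene, and more so through several, hold more genes by that choice alone, so nothing is read from the difference to all domains. In 14 of the 39 the members were the only protein-coding starts. The 9 domains with 5 or more members held 64 of the 172 genes, and 5 of these 9 held no other gene. The borders of domains with a solitary member were strong in 52 of 74 cases (70.3%, 59.1 to 79.5%), with a median score of 0.682. Over the borders of all domains with a protein-coding start, 57.9% were strong and the median was 0.592. The difference was not tested.

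The 7 members listed as genes expressed in nasal mucosa, some of them also in other organs, lay in few domains. All but Cyp1a2 share an array with others of this list, so that is largely set by the list. Cyp2g1, an olfactory-specific P450, Cyp2a5, the coumarin hydroxylase, and Cyp2f2 shared the 405 kb domain between Cyp2b23 and Cyp2t4 with Cyp2b19, Cyp2a22 and Cyp2a12 and with no other protein-coding start. Its borders are the strong boundaries of 0.834 and 1.84 described above. Cyp2g1 was 93.9 kb and Cyp2a5 120 kb from the nearest boundary, while Cyp2f2 started 0.092 kb from one. Most of the Cyp2f2 body lies beyond that boundary, in the domain of Cyp2t4. Ugt2a1, an odorant glucuronosyltransferase, Ugt2a2 and Ugt2a3 were all in the 840 kb domain, 326, 317 and 172 kb from a weak boundary of 0.426. Cyp1a2 was 76.3 kb from a boundary of 0.798. Within 10 kb of a boundary was 1 of these 7 genes, Cyp2f2 (14.3%), near the 16.4% of all genes.

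Genes that work with these enzymes were near the value over all genes. Of 45 regulators, cofactor enzymes and transporters, 8 started within 10 kb of a boundary (17.8%, 9.29 to 31.3%), beside 16.4%. This interval overlaps that of the enzyme genes (5.36 to 13.9%), so no difference from them is read. The starts of Tpmt, thiopurine methyltransferase (score 0.964), and of Ahr, the aryl hydrocarbon receptor (0.366), lay in a boundary interval. Abcc2, which exports conjugates, was 7.19 kb from a boundary of 0.921, and Papss1, which makes the sulfate donor of the Sult enzymes, 0.233 kb from one of 0.570.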

How the data were processed

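In situ Hi-C contacts of 2 replicates of 1 group were merged, and boundaries were called on the merged GRCm38 matrix, per the labels and the series' design text. The name and settings of the boundary caller were not given in the sources used here. Each 5 kb boundary has a deposited score, which is the authors' own value and was used only to describe and rank boundaries within the list. Contact matrices, insulation and compartment tracks were not analysed here, and strain differences from the reference were not examined.

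Genes came from GENCODE M21, sequence from GRCm38.p6 and promoters from RefSeq's table of that assembly, where 129 of 172 members matched. Each gene model's 5′ end was taken as its TSS. Unique sequence was the share of 50-mers (1 in 32 sampled) found once in the assembly. Coding identity was taken from global alignments of each gene's longest GENCODE coding sequence, matches over alignment length, in place of protein identity. No test was made, because 1 pooled list has no replicate spread. Counting code was tested on simulated data.

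Named genes were arrays of 3 or more members, members beside inside boundaries, members in or near a boundary, the 5 farthest solitary members, olfactory mucosa members and up to 6 partners. Pairs, Cyp2j7, the farthest array members and the promoters printed were named after their values were seen. A few items that this rule covers are not reported here. Members and lists were chosen with earlier results of these data known. Alternatives were the strong class alone, a minimum at the median score, merging within 50 kb, other joining and near distances, arrays of 3 or more, whole gene bodies, leaving out repeated bins and, added after seeing the data, same-strand pairs. Python 3.11.15, NumPy 2.4.6, pandas 2.3.3, SciPy 1.17.1 and Biopython 1.88 were used.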

Additional observations from a re-analysis of the deposited data

How the results depend on the processing

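Boundary class moved most values. With the strong class alone, or with boundaries at or above the median score, 84.0% of arrays were undivided, the median inside score was 0.834 (by construction), 4.65% of members and 3.70% of array members were near a boundary, and 4.76% of member pairs were separated. With the strong class alone, domains with array members held a median of 12 genes. With near set to 0, 25 or 50 kb, the shares were 2.33%, 22.1% and 36.0% of members, 2.22%, 20% and 34.8% of array members and 2.70%, 29.7% and 40.5% of solitary members. All genes gave 5.07%, 27.8% and 46.3%, so solitary members were above all genes at 25 kb and below at 0 and 50 kb, while array members were below at each. By spacing, 0%, 0% and 29.2% of pairs were separated at 0 to 10, 10 to 25 and 100 to 200 kb. CTCF core matches within the interval alone were at 14.9% of borders. The other 35 values stayed within the interval of the reported share or, for medians, within 1.5 times the reported value. No boundaries lay within 50 kb of each other, so merging changed nothing.

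No paired analysis was possible because replicates were pooled before calling, so leaving out a replicate was not possible either. The caller's cutoffs and the depth are unknown, and boundaries in repeated arrays rest on less unique sequence.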
